A study of Homo sapiens with 14 samples.

Results

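The 38 genes described here encode the BCL2 family, caspases, apoptosome and mitochondrial death factors, inhibitors of apoptosis and death adaptors. They were taken from a list of gene symbols by a rule that uses no measured value. The list itself was chosen with earlier results of these data known. The 38 genes were read in bulk RNA sequencing of HEK293T cells 24 h after transfection. All 38 were found by symbol among the 63140 genes of the count table, and all 38 had enough counts to be among the 18321 genes tested. The miR-34a-RS group (n = 4, replicates 1, 2, 3 and 5) received a miR-34a duplex whose guide residues 13 and 14 were abasic: rSpacer stands in their place, a sugar-phosphate unit without a base, so neither can pair with a target. The miR-34a-WT group (n = 5) received the unmodified miR-34a duplex, and the control group (n = 5) received AllStars, a negative control siRNA. The design asks what pairing of the guide beyond its seed adds to its effect on gene expression. HEK293T is an established line of human embryonic kidney origin that carries adenovirus E1 genes and the SV40 large T antigen. These viral proteins act on the cell's own death pathways, which limits the line as a model of apoptosis. Every group was transfected with a small RNA duplex, and no untransfected cells were analysed here.

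The intrinsic pathway of apoptosis is set by the balance within the BCL2 family at the outer mitochondrial membrane. Anti-apoptotic members such as BCL2 and MCL1 hold the effectors BAX and BAK1 in check, and BH3-only proteins relieve that restraint or activate the effectors directly. Once the membrane is opened, cytochrome c binds APAF1 to form the apoptosome, which activates caspase-9 and then the executioner caspases. XIAP inhibits caspases, and DIABLO and HTRA2 counter XIAP. The extrinsic pathway runs from death receptors through the adaptors FADD and TRADD to caspase-8 and caspase-10, with CFLAR as its inhibitor. BCL2 is among the reported targets of miR-34a.

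The guide strand and the best matches to its seed in the 3′ UTRs of 7 members are shown because these are the members that fell with either duplex and hold a match. The guide is the mature hsa-miR-34a-5p of RefSeq (GRCh38.p14), encoded at chr1:9151735-9151756 on the minus strand, with the seed (positions 2 to 8 from the 5′ end) in capitals in the first copy and positions 13 and 14, abasic in miR-34a-RS, in capitals in the second. Each site line gives the gene, the class of match, the position of the match in GRCh38 (GENCODE 29) and up to 30 bases of the 3′ UTR ending with the match, in DNA letters, with the match in capitals and, for BCL2, also the letters complementary to guide positions 13 to 16. An 8mer match is CACTGCCA, a 7mer-m8 match CACTGCC, a 7mer-A1 match ACTGCCA and a 6mer match ACTGCC. 
hsa-miR-34a-5p, seed: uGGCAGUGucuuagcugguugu
hsa-miR-34a-5p, positions 13 and 14: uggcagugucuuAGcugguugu
CASP2 8mer, chr7:143307638-143307645, plus strand: agagagagaacctttccactccCACTGCCA
HRK 8mer, chr12:116860143-116860150, minus strand: ttcctctgtgcaggataccacaCACTGCCA
BCL2L13 8mer, chr22:17727123-17727130, plus strand: cagctcccttgcttccacatatCACTGCCA
BMF 8mer, chr15:40091025-40091032, minus strand: gattggtcctgaggtacagagcCACTGCCA
BAX 7mer-m8, chr19:48961195-48961201, plus strand: ccttctgccctccctggagcctcCACTGCC
BCL2 7mer-A1, chr18:63128416-63128422, minus strand: gcaaaacgtcgaatcAGCTatttACTGCCA
CASP6 6mer, chr4:109688885-109688890, minus strand: ttaaagtttaatgcctagcagagaACTGCC

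In all, 4 members had an 8mer match (10.5% of the 38, against 6.04% of the 13653 tested genes with a 3′ UTR), and 6 had a 7mer-m8 match at best (15.8%, against 11.7%). A further 2 had a 7mer-A1 match (BCL2 and CASP10), 4 a 6mer match (MCL1, BAK1, CASP6 and XIAP), and 22 had none (57.9%, against 64.8%). The median 3′ UTR length was 1634.5 bases for the members, against 1370 for the 13653 genes. The part of length in these shares was not tested. Gene positions below are also those of GENCODE 29 on GRCh38. The 7mer-m8 members are BAX, BAD, BIK, CYCS, DIABLO and CFLAR. Matches were read in the longest 3′ UTR of a protein-coding transcript, and not every transcript holds them. The 8mer of CASP2 lies in 2 of its 3 coding transcripts with a 3′ UTR, that of BCL2L13 in 4 of 11, that of BMF in 2 of 5, that of HRK in 1 of 2, and the 7mer-m8 of BAX in 1 of 3. A match to guide positions 13 to 16 (AGCT, with 1 to 15 bases between the partners of positions 8 and 13) stood upstream of a seed match in BCL2, with 3 bases between, and upstream of 1 of the 6mer matches of CASP2, with 13 bases between, in 1 of its 3 coding transcripts. Such a match stood beside any seed match in 4.05% of tested genes with a 3′ UTR and beside an 8mer or 7mer-m8 match in 1.64%, and no member had one beside an 8mer or 7mer-m8 match. A match describes letters and is not evidence of binding.

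The 14 libraries held 22.24 to 36.26 M counts each, and 0.213% to 0.234% of these fell on the 38 genes. 7 of 8 HEK293T markers passed 1 CPM (counts per 1 M counts of the library, scaled by TMM), with a summed level of 627 to 659.9 CPM with miR-34a-RS, 631 to 685 CPM with miR-34a-WT and 649 to 696 CPM in control, while PAX8 was at or near 0. Fibroblast markers passed 1 CPM for 2 of 6 genes, COL1A1 and COL3A1, with sums of 28.1 to 34.2 CPM with miR-34a-RS, 27.5 to 32.1 CPM with miR-34a-WT and 25.2 to 34.3 CPM in control, and COL1A2 was at 0 in every library. PTPRC, the pan-leukocyte marker, was at or near 0, as were all 3 hepatocyte markers. Mitochondrially encoded genes took 2.19% to 3.08% of counts with miR-34a-RS, with the lowest share in replicate 2, 2.60% to 3.30% with miR-34a-WT and 2.75% to 3.10% in control, and its part in the results was not tested. Whether replicates came from separate cultures is not stated in the labels, and the p-values then measure library-to-library spread that may be technical.

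Per exon length, mean levels of the 38 messages in control ran from 0.378 TPM for BIRC3 to 249 TPM for MCL1. Levels that compare genes are in TPM (counts per kilobase of exon, scaled to a fixed library total) and are means ± SD, with n = 4 for miR-34a-RS and n = 5 for the other groups. By the summed length of all exons the highest was MCL1, a short-lived anti-apoptotic protein, at 286 ± 13.3 TPM with miR-34a-RS, 249.8 ± 5.76 TPM with miR-34a-WT and 249 ± 2.11 TPM in control. AIFM1, a flavoprotein of the intermembrane space, reached 257 ± 10.97 TPM with miR-34a-RS, 246 ± 10.8 TPM with miR-34a-WT and 247 ± 3.59 TPM in control. CYCS, cytochrome c, reached 241 ± 17.2 TPM with miR-34a-RS, 237 ± 16.98 TPM with miR-34a-WT and 217 ± 5.02 TPM in control. PMAIP1, which encodes NOXA, stood at 205 ± 21.4 TPM with miR-34a-RS, 199 ± 12.3 TPM with miR-34a-WT and 196 ± 14.2 TPM in control. BAX was at 154 ± 13.7 TPM with miR-34a-RS, 128 ± 11.9 TPM with miR-34a-WT and 174 ± 20.1 TPM in control. In control, the ranges of MCL1 and AIFM1 overlapped, as did those of CYCS and PMAIP1, and the same 5 genes led in another order when the longest transcript was taken as the length. By that length AIFM1 (242 TPM) and BAX (241 TPM) stood above MCL1 (202 TPM) in control. At the other end stood BCL2, at 2.66 ± 0.106 TPM with miR-34a-RS, 2.44 ± 0.182 TPM with miR-34a-WT and 3.23 ± 0.183 TPM in control. CASP10, an initiator caspase, was at 1.99 ± 0.166 TPM with miR-34a-RS, 2.07 ± 0.133 TPM with miR-34a-WT and 1.93 ± 0.196 TPM in control. DIABLO was at 1.22 ± 0.116 TPM with miR-34a-RS, 1.22 ± 0.0999 TPM with miR-34a-WT and 1.02 ± 0.133 TPM in control, and BIRC3 was the lowest, at 0.246 ± 0.0592 TPM with miR-34a-RS, 0.287 ± 0.0505 TPM with miR-34a-WT and 0.378 ± 0.138 TPM in control. DIABLO shares 29.6% of its exon bases on the same strand with 1 annotated gene and 16.8% with another. How such reads were counted is not given, so the level of DIABLO may be understated, which was not tested. Other members share exon bases with a gene on the opposite strand, among them FADD (54.9%), BCL2L1 (43.0%), ENDOG (39.2%), BCL2L12 (33.1%) and BAD (23.7%). Their levels, and the sum below that holds BCL2L1, may be misstated as well. Of the summed level of the 4 anti-apoptotic genes, MCL1 made up 81.5% with miR-34a-RS, 80.6% with miR-34a-WT and 80.4% in control, and BCL2 made up 0.756% with miR-34a-RS, 0.789% with miR-34a-WT and 1.04% in control. The plot of levels per exon length shows all 38.

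**Figure D1:**
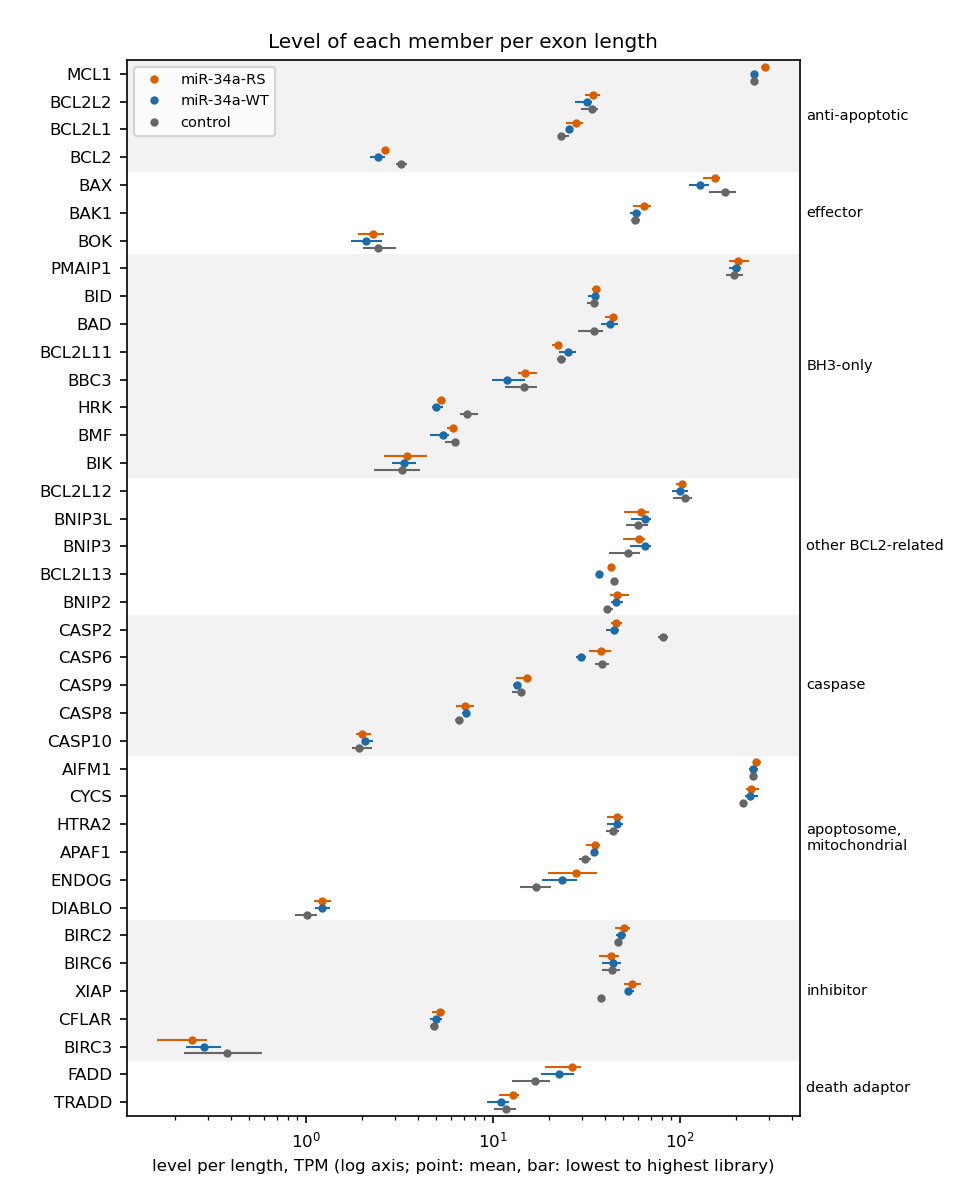
Level of each of the 38 genes in TPM on a log axis, grouped by role and ordered within a role by the control mean, with the mean as a point and the lowest to highest library as a bar, for miR-34a-RS (orange, n = 4), miR-34a-WT (blue, n = 5) and control (grey, n = 5). MCL1, AIFM1 and CYCS lie above 211 TPM in all groups and BIRC3 lies under 1 TPM, and CASP2 and XIAP show the microRNA groups apart from control.

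Against control, both microRNA duplexes moved a minority of the 38 genes, by small amounts. With miR-34a-RS, 7 members rose and 5 fell (edgeR quasi-likelihood test, Benjamini-Hochberg adjusted p under 0.05), 12 of 38, against 34.6% of all tested genes called, 16.2% higher and 18.4% lower. With miR-34a-WT, 6 rose and 8 fell, 14 of 38, against 40.2% of all tested genes, 18.9% higher and 21.3% lower. In neither comparison did the share of members called, 31.6% with miR-34a-RS and 36.8% with miR-34a-WT, stand above that of all genes. A change of at least 0.5 on the log2 scale was reached by 6 called members with miR-34a-RS (CASP2, HRK, BIRC3, XIAP, ENDOG and FADD, against 9.55% of all tested genes) and by 2 with miR-34a-WT (CASP2 and HRK, against 11.1%). The median log2 fold change of the members was 0.025 with miR-34a-RS and 0.015 with miR-34a-WT, against -0.014 and -0.019 over all tested genes in the same comparisons. Libraries did not overlap with control for 5 members with miR-34a-RS (27.0% of all tested genes) and for 8 with miR-34a-WT (28.9%). Both comparisons use the same 5 control libraries. The 3′ UTR trend below is a trend of library deviations from the gene mean (log2 CPM) on 3′ UTR GC content and length. Its removal raised the members higher with miR-34a-RS to 11 and with miR-34a-WT to 11. The fit with it removed covers the 13653 tested genes with a 3′ UTR. Of all these genes, 6914 were called with miR-34a-RS in that fit, 49.3% of the calls higher. With miR-34a-WT 7560 were called, 47.9% of the calls higher. That fit is given beside each member whose call or direction it changed. Replicate numbers were not taken as pairs between microRNA and control libraries, and fits with a replicate block are given where they changed a call. In bulk RNA, a change in the share of cells that carry a message and a change in its amount per cell cannot be told apart. The members called in both comparisons were CASP2, HRK, BCL2 and BAX, which fell, and XIAP, ENDOG, BAD and APAF1, which rose, and 20 members were called in neither. The plot of fold changes over control gives all 38 by role.

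**Figure D2:**
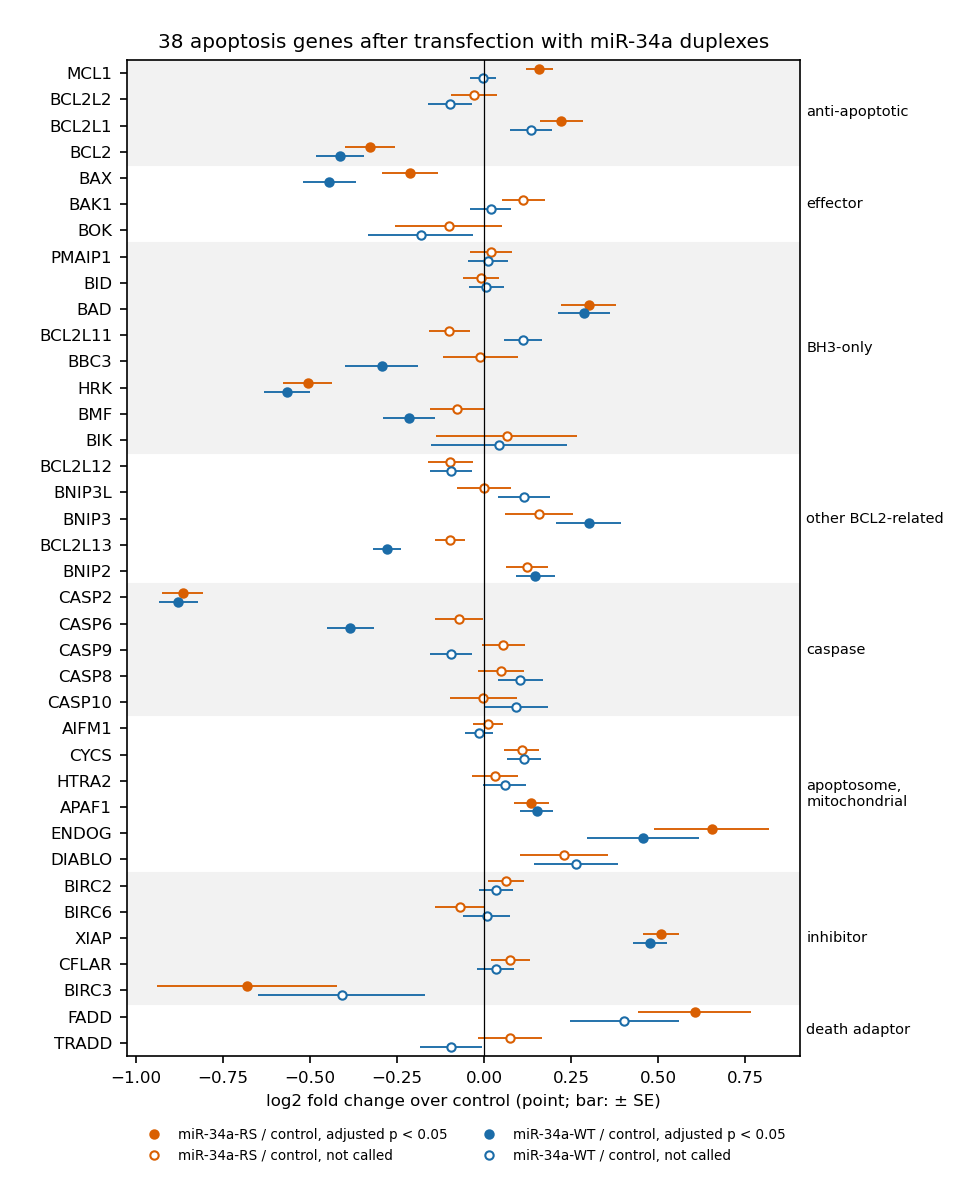
Log2 fold change over control of each of the 38 genes by role, with bars of ± 1 SE, for miR-34a-RS (orange) and miR-34a-WT (blue), filled where the adjusted p is under 0.05. CASP2 lies farthest to the left of zero with both duplexes, at -0.87 and -0.88, and ENDOG lies farthest to the right with miR-34a-RS, at 0.65.

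Among the 4 anti-apoptotic BCL2 proteins, BCL2 fell with both duplexes and MCL1 and BCL2L1 rose with miR-34a-RS. BCL2 gave 8.01, 7.59, 7.54 and 7.44 CPM with miR-34a-RS, 7.20, 6.51, 7.93, 6.93 and 7.43 CPM with miR-34a-WT and 9.60, 10.1, 9.24, 9.87 and 9.03 CPM in control. All 9 microRNA libraries lay below all 5 control libraries, and the microRNA groups overlapped each other. BCL2 (ENSG00000171791, chr18:63123346-63320128) had a log2 fold change over control of -0.33 (SE 0.072, adjusted p = 8.02e-04) with miR-34a-RS and -0.41 (SE 0.069, adjusted p = 2.61e-05) with miR-34a-WT. The match in its 3′ UTR printed above is a 7mer-A1 match, the weaker of the 7-base classes, with AGCT upstream of it, the letters that pair with guide positions 13 to 16, which include the abasic positions of miR-34a-RS. Between the duplexes BCL2 differed by 0.086 (95% interval -0.066 to 0.24, adjusted p = 0.718), a difference within the spread of the libraries. Among the 76 tested genes with a 7mer-A1 match at best and such an AGCT match, the median log2 difference of miR-34a-RS from miR-34a-WT was 0.020.

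MCL1 gave 313, 316, 296 and 299 CPM with miR-34a-RS, 268, 283, 271, 269 and 275 CPM with miR-34a-WT and 279, 268, 279, 270.2 and 274 CPM in control. The 4 miR-34a-RS libraries were above all others, and the miR-34a-WT and control libraries overlapped. MCL1 (ENSG00000143384, chr1:150574551-150579738) had a log2 fold change of 0.16 (SE 0.039, adjusted p = 0.00225) with miR-34a-RS and -0.0035 (SE 0.037, adjusted p = 0.953) with miR-34a-WT. BCL2L1, which encodes BCL-XL, ranged over 19.9 to 24.98 CPM with miR-34a-RS, 20.2 to 22.2 CPM with miR-34a-WT and 18.3 to 21.3 CPM in control. Its log2 fold changes were 0.22 (SE 0.062, adjusted p = 0.00686) with miR-34a-RS and 0.13 (SE 0.060, adjusted p = 0.0758) with miR-34a-WT. Of its exon bases 43.0% are shared with ABALON on the opposite strand (0.005 CPM). The call of BCL2L1 with miR-34a-WT was gained without control replicate 5 (0.17, adjusted p = 0.0350) and without miR-34a-RS replicate 1 (0.14, adjusted p = 0.0340). It was also gained with RLE size factors (0.15, adjusted p = 0.0488), the replicate block (0.13, adjusted p = 0.0249) and the 3′ UTR trend removed (0.26, adjusted p = 4.48e-05). BCL2L2, which encodes BCL-w, was called in neither comparison, at -0.028 with miR-34a-RS and -0.10 with miR-34a-WT. It shares 4.92% of its exon bases with PPP1R3E on the opposite strand (22.8 CPM), which a kit that does not mark strand cannot separate. BCL2L2 also shares 19.4% of its exon bases on the same strand with BCL2L2-PABPN1 (0.767 CPM).

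Of the 3 effectors that open the outer mitochondrial membrane, BAX fell with both duplexes. BAX gave 84.3, 98.5, 106 and 102 CPM with miR-34a-RS, 71.6, 93.6, 81.8, 82.4 and 85.8 CPM with miR-34a-WT and 94.3, 113, 117, 111 and 130.4 CPM in control. The miR-34a-WT libraries all lay below control, while miR-34a-RS libraries overlapped both groups. BAX (ENSG00000087088, chr19:48954815-48961798) had a log2 fold change of -0.21 (SE 0.081, adjusted p = 0.0444) with miR-34a-RS and -0.44 (SE 0.076, adjusted p = 6.03e-05) with miR-34a-WT. The call with miR-34a-RS did not hold without any 1 of miR-34a-RS replicates 1, 2 and 5, miR-34a-WT replicates 3, 4 and 5 and control replicates 2, 3, 4 and 5 (adjusted p = 0.0508 to 0.237, log2 fold change -0.23 to -0.13), nor with DESeq2 (-0.20, adjusted p = 0.0518), RLE size factors (-0.20, adjusted p = 0.0582) or upper-quartile factors (-0.19, adjusted p = 0.0690). The 7mer-m8 match of BAX lies in the 3′ UTR of 1 of its 3 coding transcripts, so the share of BAX messages that hold it is not known from gene counts. BAK1, with a 6mer match, ranged over 30.4 to 37.9 CPM with miR-34a-RS, 29.9 to 34.5 CPM with miR-34a-WT and 30.9 to 33.6 CPM in control, with log2 fold changes of 0.11 (SE 0.062, adjusted p = 0.171) with miR-34a-RS and 0.019 (SE 0.059, adjusted p = 0.831) with miR-34a-WT. It was called with miR-34a-RS only where miR-34a-RS replicate 1 was left out (0.18, adjusted p = 0.0158) or under the replicate block (0.12, adjusted p = 0.0462) or with the 3′ UTR trend removed (0.19, adjusted p = 0.00270). With the trend removed it was also called with miR-34a-WT (0.15, adjusted p = 0.0123). BOK, a relative of BAX and BAK1 at a low level here, ranged over 1.248 to 1.78 CPM with miR-34a-RS, 1.20 to 1.75 CPM with miR-34a-WT and 1.40 to 2.07 CPM in control and was called in neither comparison.

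The 8 BH3-only genes went in different directions, with HRK lower and BAD higher with both duplexes, and BBC3 and BMF lower with miR-34a-WT. HRK gave 9.13, 8.94, 8.61 and 8.89 CPM with miR-34a-RS, 8.05, 9.31, 8.60, 8.21 and 8.48 CPM with miR-34a-WT and 12.5, 14.2, 11.7, 12.8 and 11.9 CPM in control. No microRNA library reached the lowest control library. HRK (ENSG00000135116, chr12:116856144-116881441), known for its part in death of neurons after loss of growth factors, had a log2 fold change of -0.51 (SE 0.070, adjusted p = 2.74e-06) with miR-34a-RS and -0.57 (SE 0.067, adjusted p = 1.84e-07) with miR-34a-WT. BMF gave 8.16, 8.41, 7.73 and 8.43 CPM with miR-34a-RS, 6.27, 7.30, 7.63, 7.96 and 7.84 CPM with miR-34a-WT and 8.59, 8.90, 7.70, 9.06 and 8.94 CPM in control. The groups overlapped, with the miR-34a-WT libraries towards the low end. BMF, a sensor tied to the cytoskeleton, has an 8mer and a 7mer-m8 match and had a log2 fold change of -0.077 (SE 0.078, adjusted p = 0.483) with miR-34a-RS and -0.22 (SE 0.075, adjusted p = 0.0224) with miR-34a-WT. Its call with miR-34a-WT did not hold without any 1 of miR-34a-WT replicates 1 and 2 and control replicates 2 and 4 (adjusted p = 0.0626 to 0.0782, log2 fold change -0.19 to -0.17), nor without the filter on low counts (-0.21, adjusted p = 0.0811). With the 3′ UTR trend removed the call was lost and the log2 fold change was -0.11, adjusted p = 0.195, and with the replicate block as well it was -0.11, adjusted p = 0.162. BBC3, which encodes PUMA and has no seed match, ranged over 10.5 to 13.2 CPM with miR-34a-RS, 7.86 to 11.9 CPM with miR-34a-WT and 9.42 to 13.8 CPM in control. It had a log2 fold change of -0.011 (SE 0.11, adjusted p = 0.952) with miR-34a-RS and -0.29 (SE 0.10, adjusted p = 0.0279) with miR-34a-WT. This call was lost without any 1 of miR-34a-WT replicates 1 and 3 and control replicates 2, 3 and 5 (adjusted p = 0.0620 to 0.108, log2 fold change -0.28 to -0.22), and with the 3′ UTR trend removed (-0.17, adjusted p = 0.0916).

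BAD gave 16.6, 18.4, 19.6 and 18.8 CPM with miR-34a-RS, 16.1, 19.6, 16.97, 18.2 and 19.8 CPM with miR-34a-WT and 12.4, 14.5, 14.5, 16.8 and 16.4 CPM in control. Most microRNA libraries were above most control libraries, but the groups overlapped. BAD (ENSG00000002330, chr11:64269830-64284704), whose activity is switched off by survival kinases, had a log2 fold change of 0.30 (SE 0.079, adjusted p = 0.00406) with miR-34a-RS and 0.29 (SE 0.075, adjusted p = 0.00344) with miR-34a-WT, and has a 7mer-m8 match. Of its exon bases 23.7% are shared with GPR137 on the opposite strand (mean 41.5 CPM). How reads in shared bases were counted is not given, so the count of BAD may be too high or too low, which was not tested. BIK gave 0.604, 1.02, 0.905 and 0.729 CPM with miR-34a-RS, 0.697, 0.760, 0.700, 0.902 and 0.921 CPM with miR-34a-WT and 0.698, 0.547, 0.770, 0.978 and 0.943 CPM in control. The 3 groups overlapped. BIK, a BH3-only protein of the endoplasmic reticulum with a 7mer-m8 match, had log2 fold changes of 0.065 (SE 0.20, adjusted p = 0.837) with miR-34a-RS and 0.043 (SE 0.20, adjusted p = 0.886) with miR-34a-WT. BCL2L11, which encodes BIM, ranged over 33.3 to 37.8 CPM with miR-34a-RS, 37.7 to 46.9 CPM with miR-34a-WT and 37.4 to 41.3 CPM in control, with -0.10 (SE 0.058, adjusted p = 0.199) with miR-34a-RS and 0.11 (SE 0.055, adjusted p = 0.115) with miR-34a-WT. It was called with miR-34a-WT where miR-34a-WT replicate 2 was left out (0.17, adjusted p = 0.0181), with the replicate block (0.11, adjusted p = 0.0306) and with the 3′ UTR trend removed (0.12, adjusted p = 0.0445). BID, cleaved by caspase-8 to link the extrinsic and intrinsic pathways, was at -0.0089 with miR-34a-RS and 0.0067 with miR-34a-WT, and PMAIP1 at 0.019 with miR-34a-RS and 0.010 with miR-34a-WT, neither past the threshold.

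Of the 5 other BCL2-related genes, BCL2L13 fell and BNIP3 and BNIP2 rose with miR-34a-WT. BCL2L13 gave 78.9, 83.1, 80.8 and 79.8 CPM with miR-34a-RS, 68.8, 72.6, 73.5, 69.1 and 71.7 CPM with miR-34a-WT and 86.9, 87.3, 85.9, 88.4 and 82.8 CPM in control. The miR-34a-WT libraries lay below all others, and the miR-34a-RS and control libraries overlapped. BCL2L13 (ENSG00000099968, chr22:17628855-17730855), a mitochondrial receptor for autophagy with an 8mer match, had a log2 fold change of -0.10 (SE 0.042, adjusted p = 0.0770) with miR-34a-RS and -0.28 (SE 0.040, adjusted p = 3.56e-06) with miR-34a-WT. With the replicate block it was also called with miR-34a-RS (-0.10, adjusted p = 0.0284). BNIP3 gave 84.7, 81.8, 66.2 and 83.0 CPM with miR-34a-RS, 89.5, 90.2, 73.0, 94.3 and 88.5 CPM with miR-34a-WT and 63.1, 77.0, 57.2, 81.7 and 74.8 CPM in control. Replicate 3 was the lowest library of each group, and all groups overlapped. BNIP3, a mitophagy receptor induced by hypoxia, had a log2 fold change of 0.16 (SE 0.10, adjusted p = 0.238) with miR-34a-RS and 0.30 (SE 0.093, adjusted p = 0.0147) with miR-34a-WT. Its call with miR-34a-RS was gained without the filter on low counts (0.18, adjusted p = 0.0146) and with the replicate block (0.20, adjusted p = 3.79e-04). The annotation names 39 pseudogenes of BNIP3, the most abundant at 0.401 CPM, with which it can share reads. BNIP2 ranged over 83.2 to 103 CPM with miR-34a-RS, 85.7 to 97.7 CPM with miR-34a-WT and 78.5 to 89.0 CPM in control, at 0.12 (SE 0.059, adjusted p = 0.113) with miR-34a-RS and 0.15 (SE 0.056, adjusted p = 0.0390) with miR-34a-WT. Its call with miR-34a-WT was lost without any 1 of miR-34a-WT replicates 1 and 3 and control replicates 2, 4 and 5 (adjusted p = 0.0580 to 0.103, log2 fold change 0.12 to 0.15), and with the 3′ UTR trend removed (0.070, adjusted p = 0.0589). Without control replicate 1, BNIP2 was also called with miR-34a-RS (0.16, adjusted p = 0.0409), as it was with the replicate block (0.11, adjusted p = 0.0238) and with the 3′ UTR trend removed (0.11, adjusted p = 0.00746). BNIP3L, a mitophagy receptor close to BNIP3, was at -0.00057 with miR-34a-RS and 0.11 with miR-34a-WT, and was called with miR-34a-WT without miR-34a-WT replicate 3 (0.19, adjusted p = 0.0347) and with the replicate block (0.11, adjusted p = 0.0111). BCL2L12 was at -0.10 with miR-34a-RS and -0.10 with miR-34a-WT, neither past the threshold, and 33.1% of its exon bases are shared with IRF3 on the opposite strand (47.9 CPM). It was called lower with miR-34a-RS with the 3′ UTR trend removed (-0.14, adjusted p = 0.0467) and with miR-34a-WT with the replicate block (-0.094, adjusted p = 0.0420).

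Among the 5 caspases of the list, CASP2 showed the strongest fall of any member and CASP6 fell with miR-34a-WT. CASP2 gave 93.8, 82.6, 98.7 and 84.5 CPM with miR-34a-RS, 94.2, 81.6, 96.0, 88.2 and 85.8 CPM with miR-34a-WT and 158, 161, 177, 168 and 155 CPM in control. All 9 microRNA libraries were well below the lowest control library. CASP2 (ENSG00000106144, chr7:143288215-143307696), an initiator caspase activated in the PIDDosome, had a log2 fold change of -0.87 (SE 0.059, adjusted p = 1.33e-11) with miR-34a-RS and -0.88 (SE 0.055, adjusted p = 1.94e-12) with miR-34a-WT. The difference between the duplexes was 0.013 (95% interval -0.11 to 0.13). Mean levels were 89.9 ± 7.64 CPM with miR-34a-RS (SD, n = 4), 89.1 ± 5.96 CPM with miR-34a-WT (SD, n = 5) and 164 ± 8.77 CPM in control (SD, n = 5). CASP6 gave 17.9, 20.04, 15.8 and 17.8 CPM with miR-34a-RS, 13.98, 15.4, 14.2, 13.6 and 14.9 CPM with miR-34a-WT and 20.7, 18.4, 20.1, 17.1 and 17.7 CPM in control. The miR-34a-WT libraries were the lowest, with no overlap with either other group, and the miR-34a-RS and control libraries overlapped. CASP6 (ENSG00000138794, chr4:109688622-109703583), an executioner caspase that cleaves lamins, had a log2 fold change of -0.072 (SE 0.069, adjusted p = 0.457) with miR-34a-RS and -0.38 (SE 0.067, adjusted p = 4.81e-05) with miR-34a-WT. It has a 6mer match only, and 5.40% of its exon bases are shared with MCUB on the opposite strand (34.4 CPM). CASP8, the initiator of the extrinsic pathway, was at 0.048 with miR-34a-RS and 0.10 with miR-34a-WT, CASP9, the caspase of the apoptosome, at 0.055 with miR-34a-RS and -0.10 with miR-34a-WT and CASP10 at -0.0026 with miR-34a-RS and 0.091 with miR-34a-WT, none past the threshold. With block and trend removal together, CASP6 (-0.15, adjusted p = 0.0253) and CASP9 (0.12, adjusted p = 0.0484) were called with miR-34a-RS.

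Of the 6 apoptosome and mitochondrial factors, APAF1 and ENDOG rose with both duplexes. ENDOG gave 7.50, 8.15, 10.5 and 5.66 CPM with miR-34a-RS, 5.30, 6.28, 8.37, 7.71 and 6.99 CPM with miR-34a-WT and 4.15, 4.44, 6.13, 6.03 and 4.45 CPM in control. Libraries differed within each group, and the groups overlapped. ENDOG (ENSG00000167136, chr9:128818474-128822677), a mitochondrial nuclease, had a log2 fold change of 0.65 (SE 0.16, adjusted p = 0.00431) with miR-34a-RS and 0.46 (SE 0.16, adjusted p = 0.0294) with miR-34a-WT, with 39.2% of its exon bases shared with SPOUT1 on the opposite strand (0.813 CPM). Its call with miR-34a-WT was lost without any 1 of miR-34a-RS replicate 1, miR-34a-WT replicates 3 and 4 and control replicates 1, 2 and 5 (adjusted p = 0.0549 to 0.0840, log2 fold change 0.40 to 0.46). APAF1, the scaffold of the apoptosome, ranged over 62.1 to 72.3 CPM with miR-34a-RS, 67.3 to 71.1 CPM with miR-34a-WT and 57.3 to 65.7 CPM in control, at 0.14 (SE 0.050, adjusted p = 0.0371) with miR-34a-RS and 0.15 (SE 0.048, adjusted p = 0.0130) with miR-34a-WT. The call with miR-34a-RS was lost without any 1 of miR-34a-RS replicates 1, 2 and 5 and control replicates 4 and 5 (adjusted p = 0.0617 to 0.101, log2 fold change 0.11 to 0.14), and with only the groups compared (0.14, adjusted p = 0.0550).

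CYCS gave 288, 259, 251 and 255 CPM with miR-34a-RS, 269, 295, 252, 251 and 254 CPM with miR-34a-WT and 250.0, 243, 252, 238 and 237 CPM in control. The groups overlapped. CYCS, with a 7mer-m8 match, had log2 fold changes of 0.11 (SE 0.051, adjusted p = 0.106) with miR-34a-RS and 0.11 (SE 0.048, adjusted p = 0.0598) with miR-34a-WT. It was called with miR-34a-WT when any 1 of miR-34a-RS replicate 1, miR-34a-WT replicates 3 and 4 and control replicates 1 and 3 was left out (adjusted p = 0.0254 to 0.0483), and with miR-34a-RS without miR-34a-WT replicate 2 (0.13, adjusted p = 0.0343). Its call with miR-34a-WT was gained too with DESeq2 (0.13, adjusted p = 0.0327), RLE size factors (0.13, adjusted p = 0.0359), only the groups compared (0.11, adjusted p = 0.0445), the replicate block (0.11, adjusted p = 0.00997) and the 3′ UTR trend removed (0.094, adjusted p = 0.0376), the last of which also called it with miR-34a-RS (0.12, adjusted p = 0.0134). The annotation names 40 pseudogenes of CYCS, the most abundant at 1.31 CPM. DIABLO gave 2.06, 1.81, 1.95 and 2.27 CPM with miR-34a-RS, 1.94, 2.01, 2.30, 2.24 and 1.87 CPM with miR-34a-WT and 1.501, 1.93, 1.51, 1.82 and 1.89 CPM in control. Control replicates 1 and 3 were below all microRNA libraries, and the ranges overlapped. DIABLO, which relieves inhibition of caspases by XIAP and has a 7mer-m8 match, had log2 fold changes of 0.23 (SE 0.13, adjusted p = 0.170) with miR-34a-RS and 0.26 (SE 0.12, adjusted p = 0.0854) with miR-34a-WT. It was called with miR-34a-WT without control replicate 2 (0.33, adjusted p = 0.0487) and with the 3′ UTR trend removed (0.34, adjusted p = 0.0158). Of its exon bases 29.6% are shared on the same strand with 1 annotated gene and 16.8% with another. With B3GNT4 on the opposite strand 14.3% are shared. How the counting treated such reads is not given in the sources used here. HTRA2, a mitochondrial protease, was at 0.031 with miR-34a-RS and 0.060 with miR-34a-WT, and AIFM1 at 0.012 with miR-34a-RS and -0.014 with miR-34a-WT, neither past the threshold. HTRA2 shares 16.1% of its exon bases with AUP1 on the opposite strand (158.5 CPM).

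Of the 5 inhibitors, XIAP rose with both duplexes and BIRC3 fell with miR-34a-RS. XIAP gave 137, 116, 113 and 123 CPM with miR-34a-RS, 128, 116, 116, 119 and 121 CPM with miR-34a-WT and 89.8, 87.6, 85.1, 83.6 and 84.0 CPM in control. All 9 microRNA libraries were above the highest control library. XIAP (ENSG00000101966, chrX:123859724-123913979), which binds and inhibits executioner caspases and the caspase of the apoptosome, had a log2 fold change of 0.51 (SE 0.051, adjusted p = 1.74e-08) with miR-34a-RS and 0.48 (SE 0.049, adjusted p = 1.62e-08) with miR-34a-WT and has a 6mer match. BIRC3 gave 0.544, 0.460, 0.302 and 0.496 CPM with miR-34a-RS, 0.465, 0.528, 0.667, 0.435 and 0.603 CPM with miR-34a-WT and 1.117, 0.634, 0.829, 0.424 and 0.584 CPM in control. Control replicate 1 was the highest library and miR-34a-RS replicate 3 the lowest, and the groups overlapped. BIRC3, a ubiquitin ligase of NF-κB signalling, had 11 to 32 counts in a library and a log2 fold change of -0.68 (SE 0.26, adjusted p = 0.0435) with miR-34a-RS and -0.41 (SE 0.24, adjusted p = 0.186) with miR-34a-WT. The call with miR-34a-RS was lost without any 1 of miR-34a-RS replicates 2, 3 and 5, miR-34a-WT replicates 2, 3 and 4 and control replicates 1, 2 and 3 (adjusted p = 0.0505 to 0.161, log2 fold change -0.73 to -0.47) and with DESeq2 (-0.67, adjusted p = 0.0797), no filter on low counts (-0.66, adjusted p = 0.0671) and only the groups compared (-0.67, adjusted p = 0.0620). CFLAR gave 30.5, 29.8, 26.5 and 29.01 CPM with miR-34a-RS, 29.8, 28.5, 26.2, 27.7 and 28.2 CPM with miR-34a-WT and 29.1, 28.2, 26.6, 27.1 and 26.1 CPM in control. The ranges overlapped. CFLAR, which encodes the caspase-8 inhibitor FLIP and has a 7mer-m8 match, had log2 fold changes of 0.076 (SE 0.055, adjusted p = 0.310) with miR-34a-RS and 0.033 (SE 0.052, adjusted p = 0.660) with miR-34a-WT. With the 3′ UTR trend removed it was called with miR-34a-RS (0.12, adjusted p = 0.0209). BIRC2, the close relative of BIRC3, was at 0.063 with miR-34a-RS and 0.035 with miR-34a-WT, and BIRC6, a very large inhibitor and ubiquitin ligase, at -0.070 with miR-34a-RS and 0.0072 with miR-34a-WT, neither past the threshold. With the 3′ UTR trend removed BIRC2 turned direction with miR-34a-WT and was called lower (-0.12, adjusted p = 0.00629), also with the replicate block (-0.12, adjusted p = 0.00454).

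Of the 2 death adaptors, FADD rose with miR-34a-RS. Of the exon bases of FADD 54.9% are shared with an antisense gene on the opposite strand (0.0 CPM). FADD gave 13.2, 12.5, 13.7 and 8.63 CPM with miR-34a-RS, 9.60, 9.28, 12.3, 12.6 and 8.32 CPM with miR-34a-WT and 5.90, 7.75, 9.53, 9.35 and 6.604 CPM in control. Replicate 5 was the lowest library of each microRNA group, and the groups overlapped. FADD (ENSG00000168040, chr11:70203163-70207390), which links death receptors to caspase-8, had a log2 fold change of 0.61 (SE 0.16, adjusted p = 0.00766) with miR-34a-RS and 0.40 (SE 0.16, adjusted p = 0.0513) with miR-34a-WT. It was called with miR-34a-WT when any 1 of miR-34a-RS replicate 5, miR-34a-WT replicates 2 and 5 and control replicates 3 and 4 was left out (adjusted p = 0.0163 to 0.0421). That call was gained as well with upper-quartile factors (0.41, adjusted p = 0.0424), only the groups compared (0.40, adjusted p = 0.0319) and the 3′ UTR trend removed (0.48, adjusted p = 0.0354). Each miR-34a-WT library was above the control library of the same number, in 5 of 5, and with the replicate block the log2 fold change with miR-34a-WT was 0.41, adjusted p = 8.53e-05. TRADD, the adaptor of the TNF receptor, ranged over 6.74 to 8.64 CPM with miR-34a-RS, 5.96 to 7.87 CPM with miR-34a-WT and 6.63 to 8.58 CPM in control. The log2 fold changes were 0.075 (SE 0.092, adjusted p = 0.574) with miR-34a-RS and -0.094 (SE 0.089, adjusted p = 0.434) with miR-34a-WT. The plot of single libraries gives 12 members that span these roles.

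**Figure D3:**
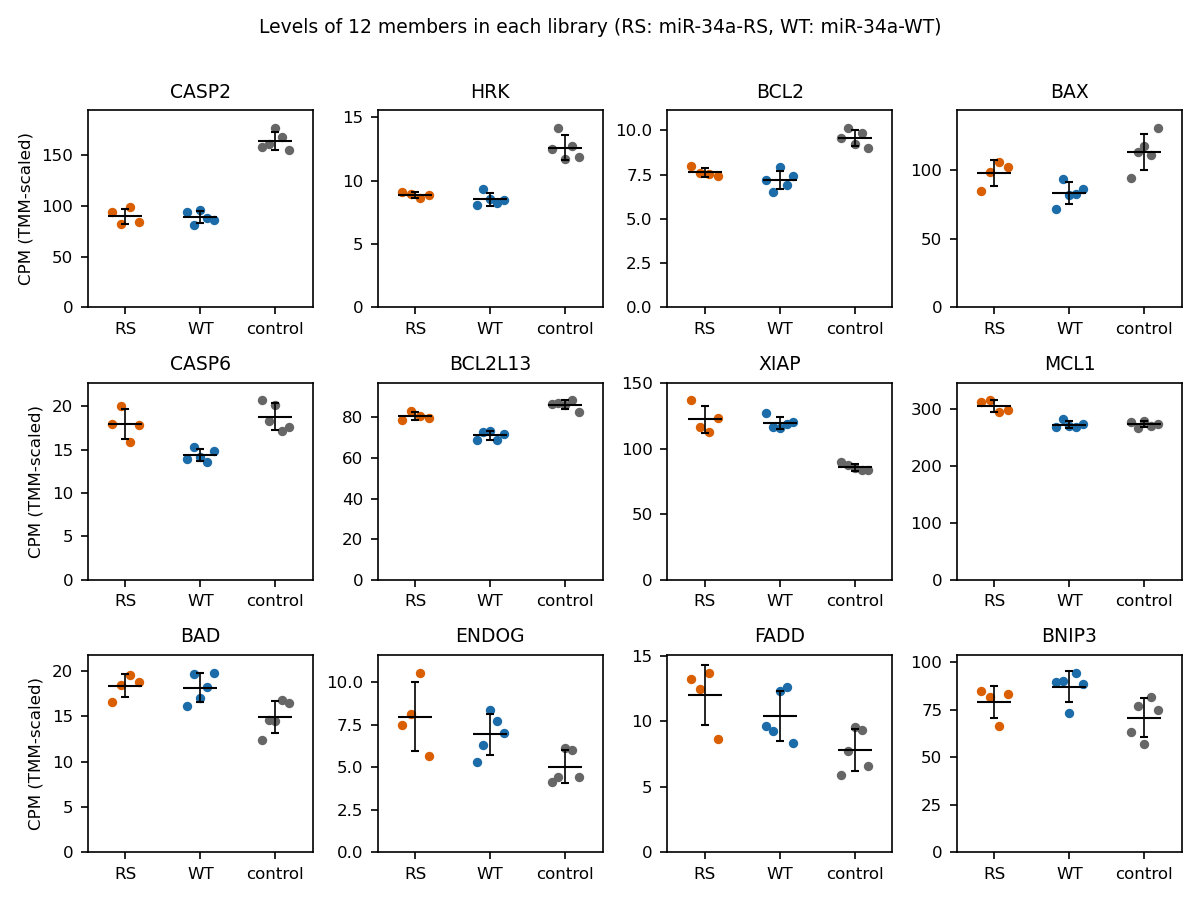
Level in CPM, scaled by TMM, of 12 members in each library (points) with the mean and SD (black), for miR-34a-RS (RS, n = 4), miR-34a-WT (WT, n = 5) and control (n = 5), each axis from 0. For CASP2 the microRNA libraries lie between 81.6 and 98.7 CPM and the control libraries at 155 CPM or more, and for CASP6 and BCL2L13 the miR-34a-WT libraries lie below both other groups.

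The direct comparison of the duplexes asks whether the loss of bases 13 and 14 changed any member. MCL1, CASP6 and BCL2L13 were higher in miR-34a-RS libraries than in miR-34a-WT libraries, 3 of 38 members, against 1.56% of all tested genes called, 1.03% higher and 0.535% lower (edgeR quasi-likelihood test). The log2 difference was 0.31 (SE 0.071, adjusted p = 0.0201) for CASP6, 0.18 (SE 0.042, adjusted p = 0.0251) for BCL2L13 and 0.16 (SE 0.039, adjusted p = 0.0295) for MCL1, and in each the 4 miR-34a-RS libraries lay above all 5 miR-34a-WT libraries, as printed above. Groups that do not overlap occurred for these 3 members and for 4.81% of all tested genes. CASP6 and BCL2L13 fell with miR-34a-WT and were not called with miR-34a-RS, and MCL1 was at -0.0035 over control with miR-34a-WT and rose with miR-34a-RS. None of the 3 has a seed match with an AGCT match to positions 13 to 16 upstream, and their best matches are a 6mer for CASP6 and MCL1 and an 8mer for BCL2L13. None of the 3 differences reached 0.5, a size seen with a call in 0.207% of all tested genes.

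These calls were sensitive to single libraries and, for MCL1 and BCL2L13, to other settings. CASP6 lost its call without any 1 of miR-34a-RS replicates 2 and 5 and miR-34a-WT replicates 1, 3 and 4 (adjusted p = 0.0524 to 0.124, log2 difference 0.26 to 0.31). BCL2L13 lost its call without any 1 of miR-34a-RS replicates 2, 3 and 5 and miR-34a-WT replicates 1 and 4 (adjusted p = 0.0629 to 0.117, log2 difference 0.17 to 0.19). MCL1 lost its call without any 1 of miR-34a-RS replicates 2 and 5 and miR-34a-WT replicates 1, 3, 4 and 5 (adjusted p = 0.0551 to 0.139, log2 difference 0.15 to 0.17). Without the filter on low counts MCL1 (0.17, adjusted p = 0.103) and BCL2L13 (0.19, adjusted p = 0.0690) lost their calls, while BAX (0.24, adjusted p = 0.00323) and BBC3 (0.29, adjusted p = 0.0370) gained one. With only the groups compared, MCL1 (0.16, adjusted p = 0.0624) and BCL2L13 (0.18, adjusted p = 0.0613) lost theirs. With the 3′ UTR trend removed BAX (0.18, adjusted p = 0.0480) and BCL2L11 (-0.18, adjusted p = 0.0438) were called. Same-numbered libraries of the 2 microRNA groups deviated together. The calls, SEs and intervals above and in the plot are from the fit without a block. With the replicate number as a block 6 members were higher (3.41% of all tested genes) and 1 lower (3.43%) with miR-34a-RS. Beside MCL1 (0.16, adjusted p = 0.00221), CASP6 (0.28, adjusted p = 0.00522) and BCL2L13 (0.18, adjusted p = 0.00184), the block called BAX (0.23, adjusted p = 0.00122), BBC3 (0.30, adjusted p = 0.0322) and FADD (0.28, adjusted p = 0.0356) higher and BCL2L11 (-0.20, adjusted p = 0.00470) lower. Under the same block 625 of all tested genes were higher and 629 lower, against 188 and 98 without it. Without the block, BAX differed by 0.23 (SE 0.081, adjusted p = 0.191), BBC3 by 0.28 (SE 0.11, adjusted p = 0.255), FADD by 0.20 (SE 0.16, adjusted p = 0.689) and BCL2L11 by -0.21 (SE 0.058, adjusted p = 0.0680). BAX was also called without miR-34a-RS replicate 1 (0.30, adjusted p = 0.0474), as was CASP9 (0.22, adjusted p = 0.0372), and BCL2L11 without miR-34a-WT replicate 2 (-0.25, adjusted p = 0.0283). No member was called lower by edgeR over all 14 libraries without the block, against 1 at an unadjusted p under 0.05, BCL2L11, and 1 by DESeq2. For the 35 members not called, the 95% interval of the difference lay within ± 0.5 for 31 and within ± 0.3 for 24, and the 4 that reached past ± 0.5 were BBC3, BIRC3, FADD and ENDOG. The plot of differences between the duplexes gives these intervals.

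**Figure D4:**
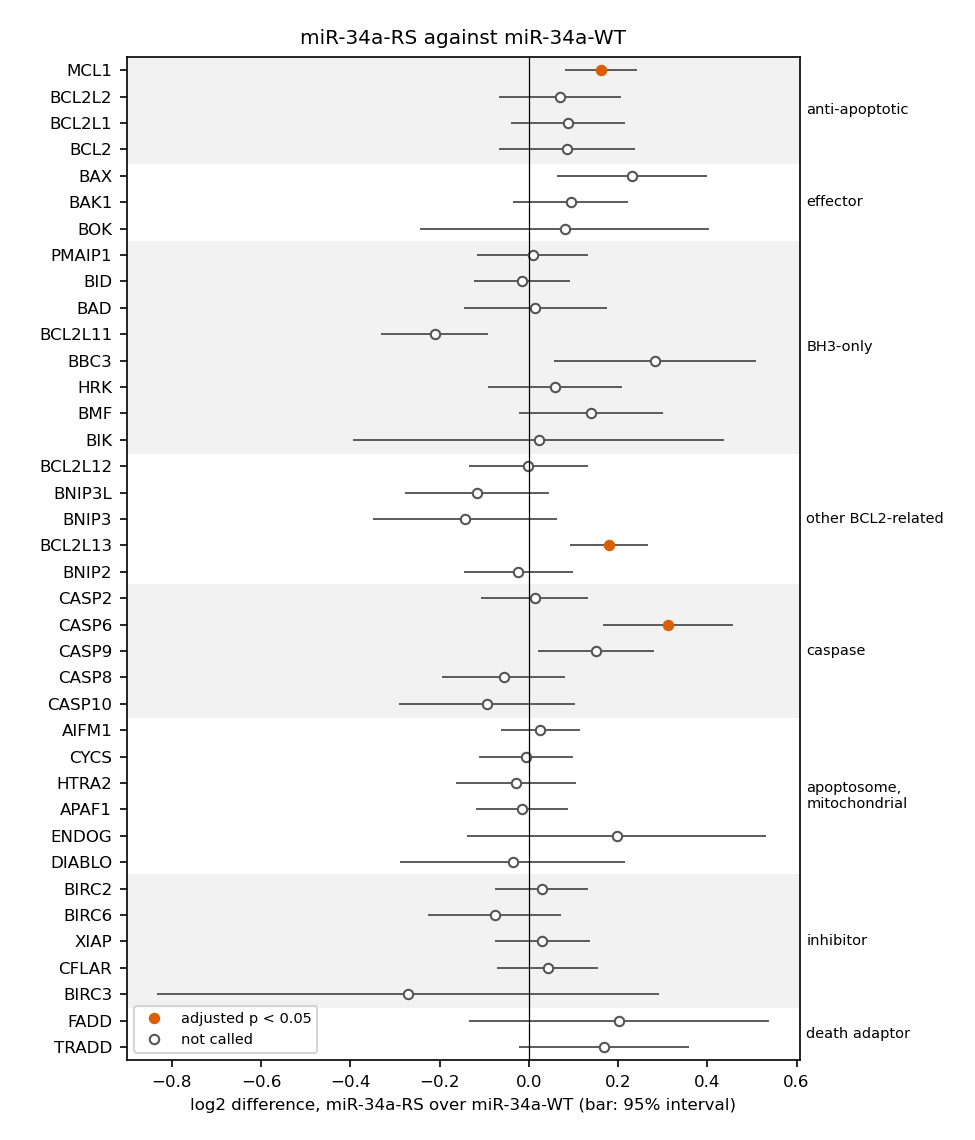
Log2 difference of miR-34a-RS (n = 4) from miR-34a-WT (n = 5) for each of the 38 genes by role, with 95% intervals from the fit without the replicate block; filled orange points passed an adjusted p of 0.05. MCL1, CASP6 and BCL2L13 are filled, at 0.16, 0.31 and 0.18, and the interval of CASP2 lies around zero.

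Set beside the seed matches of the longest 3′ UTR, all 4 members with an 8mer, CASP2, HRK, BCL2L13 and BMF, fell with miR-34a-WT. Of the 4, CASP2 and HRK fell with miR-34a-RS. CFLAR, a 7mer-m8 member by that UTR, has an 8mer in another annotated 3′ UTR. BID and CASP9, taken below as without a match, have a 7mer-m8 in another annotated 3′ UTR. In the fit reported, CFLAR, BID and CASP9 were called with neither duplex. The call of BMF was lost with the 3′ UTR trend removed, without the filter and with each of 4 libraries left out, with the values given above. Among all 824 tested genes with an 8mer at best, 49.9% fell with miR-34a-RS and 52.1% with miR-34a-WT. Their median log2 fold change was -0.20 with miR-34a-RS and -0.22 with miR-34a-WT, against -0.30 and -0.42 for the 4 members in the same comparisons. Of the 6 members with a 7mer-m8, BAX fell and BAD rose with both duplexes, and the other 4 were not called, with all genes of the class falling in 36.7% with miR-34a-RS and 42.0% with miR-34a-WT. Of the 22 members with no match, 4 rose and 1 fell with each duplex. Over all 8851 tested genes of that class, miR-34a-RS gave 23.1% higher and 14.02% lower calls, and miR-34a-WT gave 27.1% higher and 17.2% lower calls. The members that fell without a match were BIRC3 with miR-34a-RS and BBC3 with miR-34a-WT. These counts over few genes are a description and were not tested.

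The wider apoptosis machinery was read in a list of 46 further genes (executioner caspases, death receptors, adaptors and nucleases), of which 40 were tested. With miR-34a-RS 10 of the 40 rose and 12 fell, and with miR-34a-WT 12 rose and 12 fell, 55.0% and 60.0% of the tested genes in these comparisons, against the 34.6% and 40.2% of all tested genes given above. The list was chosen with earlier results of these data known, so these shares are a description and were not tested. The list's median log2 fold change was 0.015 with miR-34a-RS and 0.020 with miR-34a-WT. Between the duplexes none of the 40 was called by edgeR or by DESeq2, with 3 higher and 2 lower at an unadjusted p under 0.05. The 6 named here are among the 8 with the smallest adjusted p in any comparison. MOAP1, a partner of BAX, ranged over 24.2 to 29.01 CPM with miR-34a-RS, 23.8 to 27.6 CPM with miR-34a-WT and 35.6 to 39.7 CPM in control, a log2 fold change of -0.54 (SE 0.058, adjusted p = 4.89e-08) with miR-34a-RS and -0.60 (SE 0.055, adjusted p = 2.78e-09) with miR-34a-WT. All microRNA libraries lay below all control libraries for MOAP1. CRADD, the adaptor of caspase-2 in the PIDDosome, ranged over 9.28 to 10.6 CPM with miR-34a-RS, 9.25 to 10.8 CPM with miR-34a-WT and 6.08 to 7.31 CPM in control, at 0.54 (SE 0.075, adjusted p = 2.98e-06) with miR-34a-RS and 0.58 (SE 0.072, adjusted p = 3.64e-07) with miR-34a-WT. CRADD was higher and CASP2 lower in every microRNA library than in any control library. TNFRSF21, death receptor 6, was at -0.37 (SE 0.065, adjusted p = 8.21e-05) with miR-34a-RS and -0.47 (SE 0.062, adjusted p = 1.12e-06) with miR-34a-WT. DEDD, a death effector domain protein, was at -0.15 (SE 0.053, adjusted p = 0.0248) with miR-34a-RS and -0.32 (SE 0.050, adjusted p = 1.27e-05) with miR-34a-WT, with 22.6% of its exon bases shared with NIT1 on the opposite strand (39.5 CPM). SEPTIN4, one form of which binds XIAP, was at -0.46 (SE 0.12, adjusted p = 0.00343) with miR-34a-RS and -0.71 (SE 0.12, adjusted p = 1.97e-05) with miR-34a-WT, and BCLAF1, a nuclear factor first found as a BCL2 partner, at 0.19 (SE 0.057, adjusted p = 0.0100) with miR-34a-RS and 0.30 (SE 0.054, adjusted p = 6.28e-05) with miR-34a-WT.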

How the data were processed

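Per the labels' protocols, the 14 HEK293T libraries were made from total RNA with a TruSeq RNA v2 kit, which does not mark strand. The deposited values were whole-number read counts per gene in a table of 63140 genes. They show no sign of filtering or scaling by the authors, as 21677 of these genes have no count in any library and totals differ. The submitters' processing notes name GRCh38, edgeR 3.42.4, STAR 2.7.11a and featureCounts (Subread 2.0.3), and the annotation release and strand setting are not given in the sources used here. Groups follow the transfected duplex named in the labels.

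The gene test was that of edgeR 4.0.16 under R 4.3.3 (TMM factors, filterByExpr by group, robust glmQLFit and glmQLFTest, 1 fit of 3 group means over 14 libraries, common biological coefficient of variation 0.0615), with Benjamini-Hochberg adjustment over 18321 genes and a threshold of 0.05. SE is the absolute log2 fold change over the square root of F, and intervals are at 95%. CPM values are TMM-scaled. TPM values use union exon lengths of GENCODE 29, whose identifiers hold 99.7% of counts. Alternatives were DESeq2 1.42.0, RLE and upper-quartile factors, no filter, only the groups compared and a replicate block. Removal of the 3′ UTR trend and leaving out each library were the others, 22 settings for each comparison in all. The 3′ UTR trend was fitted to each library with splines on GC content and length, and entered the edgeR fit as offsets. That fit and its adjustment covered 13653 genes. No replicate pair agreed within sampling noise (chi-square per degree of freedom 2.75 to 14.04 over 26 pairs).

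The labels do not say what a replicate number marks. Deviations from group means over 11259 genes correlated at 0.37 to 0.72 between same-numbered miR-34a-RS and miR-34a-WT libraries (4 of 4 pairs), so these numbers were taken to pair the libraries, and results of the fit with the block are given beside those of the fit without it, which remained the one reported.

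The members and lists were chosen with earlier results of these data known. Values in every library are given for members called in any comparison with at least 0.3 in absolute log2 fold change there, members with an 8mer or 7mer-m8 match, members called between the duplexes, and BCL2. From the further list the 8 genes with the smallest adjusted p in any comparison were taken, and 2 of them and 1 marker gene are not reported here. On simulated counts the fit recovered 66% of genes changed 1.25 times and 96% to 98% of larger changes against control, and 58% and 94% to 98% between the duplexes, with 9 (miR-34a-WT), 7 (miR-34a-RS) and 5 (between duplexes) unchanged genes called. The simulated libraries were drawn independently, whereas same-numbered microRNA libraries deviated together. Only 50 genes were changed at each size (1.25, 1.5, 2 and 4 times), far fewer than were called against control. The adjustment depends on that share, so recovery in the real comparisons may differ. Only genes with a mean above 1 CPM were changed, so BIK and BIRC3 are not covered. Python 3.11.15 with numpy 2.4.6, pandas 2.3.3, scipy 1.17.1 and matplotlib 3.10.9 was used for the rest.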

Additional observations from a re-analysis of the deposited data

Results flagged for a closer look

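In 9 of 114 groups examined (38 genes in 3 groups) 1 library stood apart from the rest of its group by Dixon's test, and chance alone does so in about 1 in 20 groups. BCL2L2 was 29.2 CPM in miR-34a-WT replicate 3, against 33.9 to 35.8 CPM in the other libraries of its group. BCL2L11 was 33.3 CPM in miR-34a-RS replicate 2, against 37.3 to 37.8 CPM in the other libraries of its group. BID was 35.5 CPM in miR-34a-WT replicate 1, against 39.1 to 40.4 CPM in the other libraries of its group. BNIP3 was 66.2 CPM in miR-34a-RS replicate 3, against 81.8 to 84.7 CPM in the other libraries of its group. BNIP3 was 73.0 CPM in miR-34a-WT replicate 3, against 88.5 to 94.3 CPM in the other libraries of its group. BNIP2 was 103 CPM in miR-34a-RS replicate 1, against 83.2 to 86.6 CPM in the other libraries of its group. CASP8 was 12.3 CPM in miR-34a-WT replicate 1, against 13.1 to 13.3 CPM in the other libraries of its group. CASP9 was 17.2 CPM in miR-34a-RS replicate 1, against 20.3 to 20.6 CPM in the other libraries of its group. HTRA2 was 30.4 CPM in miR-34a-WT replicate 1, against 35.3 to 37.1 CPM in the other libraries of its group. All were low values except that of BNIP2. Of the 9, miR-34a-WT replicate 1 accounted for 3, and miR-34a-WT replicate 3 and miR-34a-RS replicate 1 for 2 each. None of these genes was called between the duplexes over all 14 libraries without the block, and the cause of the single values was not tested.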

How the results depend on the processing

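Members whose state, called or not, was the same in every setting numbered 26 of 38 with miR-34a-RS and 25 with miR-34a-WT. Between the duplexes they numbered 30, none of them called. Of the called members, 3 of 12 with miR-34a-RS and 4 of 14 with miR-34a-WT lost the call in some setting. All 3 calls between the duplexes were lost in some setting. BIRC2 with miR-34a-WT reversed to -0.12 with the 3′ UTR GC and length trend removed (adjusted p = 0.00629), and to -0.12 with the block added (adjusted p = 0.00454), from 0.035 without a call. Members higher with miR-34a-RS numbered 11 with the trend removed and 13 with block and trend, against 7, and members lower numbered 3 with DESeq2, against 5. Members higher with miR-34a-WT numbered 11 with the block, 11 with the trend removed and 12 with both, against 6. Calls over all tested genes moved too. With miR-34a-RS they numbered 6914 with the trend removed (49.3% of them higher), 7550 with both (49.9%) and 6262 with DESeq2 (50.9%), against 6346 (46.8%). With miR-34a-WT they numbered 8817 with the block (47.3% of them higher), 7560 with the trend removed (47.9%) and 8194 with both (48%), against 7373 (47.1%). Fits with the trend removed covered 13653 genes, and the others 18321. Between the duplexes 1 member was higher with only the groups compared and 6 with the block, against 3, and 1 was lower with DESeq2, with the block, with the trend removed and with both, against 0. In the further apoptosis list the counts between the duplexes, 0 and 0, became 2 higher and 3 lower with the block, 2 higher with the trend removed, and 2 higher and 1 lower with both. Over all tested genes, those higher numbered 625 with the block, 429 with the trend removed and 680 with both, against 188, and those lower 230 with DESeq2, 60 with only the groups compared, 629 with the block, 290 with the trend removed and 575 with both, against 98; the higher share of calls, 65.7%, was 54.8% with DESeq2, 75.7% with upper-quartile factors and 49.8% with the block.

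With single libraries left out, members higher and lower ranged over 6 to 8 and 3 to 5 with miR-34a-RS, over 5 to 8 and 6 to 8 with miR-34a-WT, and over 0 to 5 and 0 to 1 between the duplexes. The last count of higher members was 0 without miR-34a-RS replicate 2 or 5 or miR-34a-WT replicate 1 or 4, 1 without miR-34a-WT replicate 3 and 5 without miR-34a-RS replicate 1. In the further list the counts between the duplexes ranged over 0 to 1 and 0 to 1, and over all genes over 111 to 391 higher and 31 to 339 lower. Against control, all genes ranged over 2621 to 3335 higher and 2846 to 3396 lower with miR-34a-RS. With miR-34a-WT they ranged over 3228 to 3728 higher and 3328 to 3971 lower. Same-numbered libraries correlated at -0.0015 to 0.48 between miR-34a-RS and control (3 of 4 pairs above 0.1) and at -0.16 to 0.56 between miR-34a-WT and control (4 of 5). The means were 0.27 with miR-34a-RS and 0.29 with miR-34a-WT, against -0.070 and -0.071 between libraries of different numbers. Most of these pairs thus deviated together, though not all. Those numbers were still not taken as pairs in the fit reported, which has no block. The block moved no other count of member calls by over 1.5 times. With any annotated 3′ UTR, 12 members had an 8mer or 7mer-m8 match, against 10. The causes of these moves were not tested. BIRC3 and BIK have few counts in every library, which limits their precision.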

Other observations

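FADD and ENDOG, which varied between libraries in every group, were chosen for mention after their values were seen. In replicates 3 and 5, FADD was at 13.7 and 8.63 CPM with miR-34a-RS, 12.3 and 8.32 CPM with miR-34a-WT and 9.53 and 6.604 CPM in control, and ENDOG at 10.5 and 5.66 CPM with miR-34a-RS, 8.37 and 6.99 CPM with miR-34a-WT and 6.13 and 4.45 CPM in control. Replicate 3 was the higher of the pair in all 3 groups for both genes. The labels do not say what a replicate number marks, and with the number as a block the log2 fold change over control of FADD was 0.69, adjusted p = 1.37e-07 with miR-34a-RS and 0.41, adjusted p = 8.53e-05 with miR-34a-WT. That of ENDOG was 0.71, adjusted p = 4.94e-07 with miR-34a-RS and 0.47, adjusted p = 8.34e-05 with miR-34a-WT under the same block. Between the duplexes the block gave 0.28, adjusted p = 0.0356 for FADD and 0.24, adjusted p = 0.110 for ENDOG.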
